A study of Mus musculus with 30 samples.

Results

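The neutrophil-attracting CXC chemokines were described as a set of 6 genes, the ligands Cxcl1, Cxcl2, Cxcl3, Cxcl5 and Cxcl15 and the receptor Cxcr2. They were picked out by gene symbol from 55487 annotated genes, and the set was chosen with earlier results of these data known. RNA sequencing had been carried out on lung organoid cultures, in which 300000 freshly isolated Epcam+ lung epithelial cells of wild-type mice were mixed with as many CCL206 cells. CCL206 is a line of lung fibroblasts from mice, and it was treated with mitomycin C beforehand so that it no longer divided. The cultures were grown in Matrigel with a treatment for 72 h, then disrupted and separated with Epcam (CD326) microbeads into an epithelial (Epcam+) fraction and a fibroblast (Epcam-) fraction. Epithelial cells of 4 mice were each given 4 treatments. These were the vehicle, an exacerbation cocktail (EC) of 4 factors (TNFα, IL-1β, IL-6 and IL-8), an idiopathic pulmonary fibrosis cocktail (IPFc) of 9 factors (the cytokines IL-1β, TNFα, TGF-β and TSLP, the interleukins IL-4, IL-13 and IL-33, and the chemokines CCL2 and IL-8), and TGF-β alone at 2 ng/ml. The study's methods add that EC for mouse cells held KC in place of human IL-8. KC is the protein product of Cxcl1, so a ligand described here was itself added to the EC cultures. This gave 8 groups of fraction and treatment and 30 libraries. There were 4 libraries, from mice 1 to 4, in each group except vehicle fibroblasts (mice 1, 3 and 4) and TGF-β epithelial cells (mice 2, 3 and 4). The libraries of mouse 2 and mouse 1 that would complete these groups were not analysed here. The fibroblasts are a single line, so the mouse number of a fibroblast library names the mouse whose epithelial cells shared the well, and the spread between fibroblast libraries is a spread between cultures.

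CXC chemokines that carry a glutamate-leucine-arginine (ELR) motif ahead of their first cysteines bind CXCR2, a G protein-coupled receptor of neutrophils, and draw these cells out of blood into inflamed tissue. In the lung, epithelial cells and fibroblasts make them when they sense bacterial products, IL-1, TNF or IL-17, largely through the transcription factor NF-kB. Mice have no direct counterpart of IL-8, and Cxcl1 (KC), Cxcl2 (MIP-2), Cxcl3 and Cxcl5 (LIX) serve in its place. Cxcl15, or lungkine, is a related chemokine made mainly by lung epithelium. IL-1 and IL-17 also lengthen the life of these short-lived mRNAs, which are removed by decay factors such as Zfp36 and Zc3h12a.

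The 5 ligand genes lie together on mouse chromosome 5 (GRCm38.p6), between bases 90759298 and 90905938, a stretch of 146641 bp. Their order is Cxcl5, the related Ppbp and Pf4, then Cxcl3, Cxcl15, Cxcl1 and Cxcl2. Cxcl5 spans chr5:90759298-90761625 and Cxcl3 spans chr5:90786101-90788093. Cxcl15 spans chr5:90794534-90803067, Cxcl1 spans chr5:90891245-90893121 and Cxcl2 spans chr5:90903899-90905938. Cxcr2 is on another chromosome, at chr1:74153994-74161246. RefSeq windows of 250 bases before to 50 bases after the start site were at hand for 5 of the 6 members, all but Cxcl5. The 150 bases ahead of the start are shown for these because the promoters of Cxcl1, Cxcl2 and Cxcl3 share a run that the others lack. All are on the plus strand of GRCm38.p6, and the capitals mark that run.
Cxcl1, chr5:90891095-90891244: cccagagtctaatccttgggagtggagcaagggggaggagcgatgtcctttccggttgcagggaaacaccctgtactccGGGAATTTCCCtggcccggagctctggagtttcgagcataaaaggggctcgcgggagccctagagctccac
Cxcl2, chr5:90903749-90903898: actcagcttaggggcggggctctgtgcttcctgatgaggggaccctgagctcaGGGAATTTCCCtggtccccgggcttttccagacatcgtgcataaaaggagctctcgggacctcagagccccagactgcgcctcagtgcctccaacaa
Cxcl3, chr5:90785951-90786100: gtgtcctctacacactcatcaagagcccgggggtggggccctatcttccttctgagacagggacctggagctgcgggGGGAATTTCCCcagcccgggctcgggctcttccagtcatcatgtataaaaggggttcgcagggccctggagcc
Cxcl15, chr5:90794384-90794533: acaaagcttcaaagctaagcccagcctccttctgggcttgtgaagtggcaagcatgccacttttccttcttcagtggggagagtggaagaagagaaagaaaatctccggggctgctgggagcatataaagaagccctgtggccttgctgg
Cxcr2, chr1:74153844-74153993: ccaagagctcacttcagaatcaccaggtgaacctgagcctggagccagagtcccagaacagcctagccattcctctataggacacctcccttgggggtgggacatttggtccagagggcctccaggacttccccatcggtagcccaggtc
The 11-base run GGGAATTTCCC, which reads almost the same on both strands, was present in 14 of 32851 windows of this length, or 0.0426%. It holds a pair of overlapping matches to the NF-kB consensus, 1 on each strand, and a match to that consensus was found in 1480 windows (4.51%). The plus-strand match ended 61 bases before the start in Cxcl1, 87 bases before it in Cxcl2 and 63 bases before it in Cxcl3. Of 6 windows of CXC chemokines without the ELR motif, 1 held a match. A TATA-like run (TATAAA or CATAAA, searched on the plus strand) followed the NF-kB match in these 3 genes and was also present in Cxcl15. The windows of Cxcl15 and Cxcr2 held no match to the consensus. These are matches of letters only, and binding was not measured.

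Library depth ran from 5113828 to 20317181 counted reads, with a median of 13843287, and the shallowest library was the EC fibroblast library of mouse 1. At this depth 3 counts, taken as the floor of detection, amounted to 0.148 to 0.587 CPM (read counts scaled to a common library total), and this covers counting error only. The fractions were not pure. All of the 25 epithelial markers were detected in every fibroblast group, and their summed level in vehicle fibroblast libraries ranged from 7564 to 12167 CPM, against 29939 to 36854 CPM in vehicle epithelial libraries. The share of the partner fraction was estimated in each library as the median ratio, over reference markers of at least 50 CPM, to the library of the other fraction from the same mouse and treatment. Epithelial RNA estimated in this way made up 22.0% ± 8.57 of vehicle fibroblast libraries (SD, n = 3), 45.7% ± 10.1 of EC (n = 4), 19.99% ± 11.2 of IPFc (n = 4) and 2.34% ± 1.39 of TGF-β fibroblast libraries (n = 4). Fibroblast RNA by the same estimate made up 6.02% ± 2.49 of vehicle epithelial libraries (n = 4), 11.7% ± 4.99 of EC (n = 4), 11.3% ± 5.24 of IPFc (n = 4) and 29.3% ± 2.98 of TGF-β epithelial libraries (n = 3). The highest fibroblast markers in TGF-β epithelial libraries were Fn1, Col1a2, Col1a1 and Bgn. Fibroblast RNA there cannot be told apart from expression of such markers by epithelial cells, which was not tested. From vehicle to TGF-β epithelial libraries mean Epcam went from 216 to 401 CPM and mean Cdh1 from 769 to 892 CPM. The mean sum of the epithelial markers went from 31811 to 14392 CPM. The estimated share therefore moved with the treatment in both fractions, and calls of members that were lost or turned after this share of the partner library was subtracted are marked as such. In bulk RNA, fewer cells of a type cannot be told apart from less RNA per cell. Of 13 neutrophil markers, the myeloperoxidase gene Mpo had no read in any library, and the sum was carried by Ltf, a gene also used by airway epithelium. It ranged from 1631 to 2834 CPM in EC epithelial libraries and from 1.65 to 4.12 CPM in TGF-β fibroblast libraries. The 16 markers of other leukocytes summed to between 21.8 and 167 CPM and the 10 endothelial markers to between 1.60 and 10.4 CPM over all libraries.

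**Figure D1:**
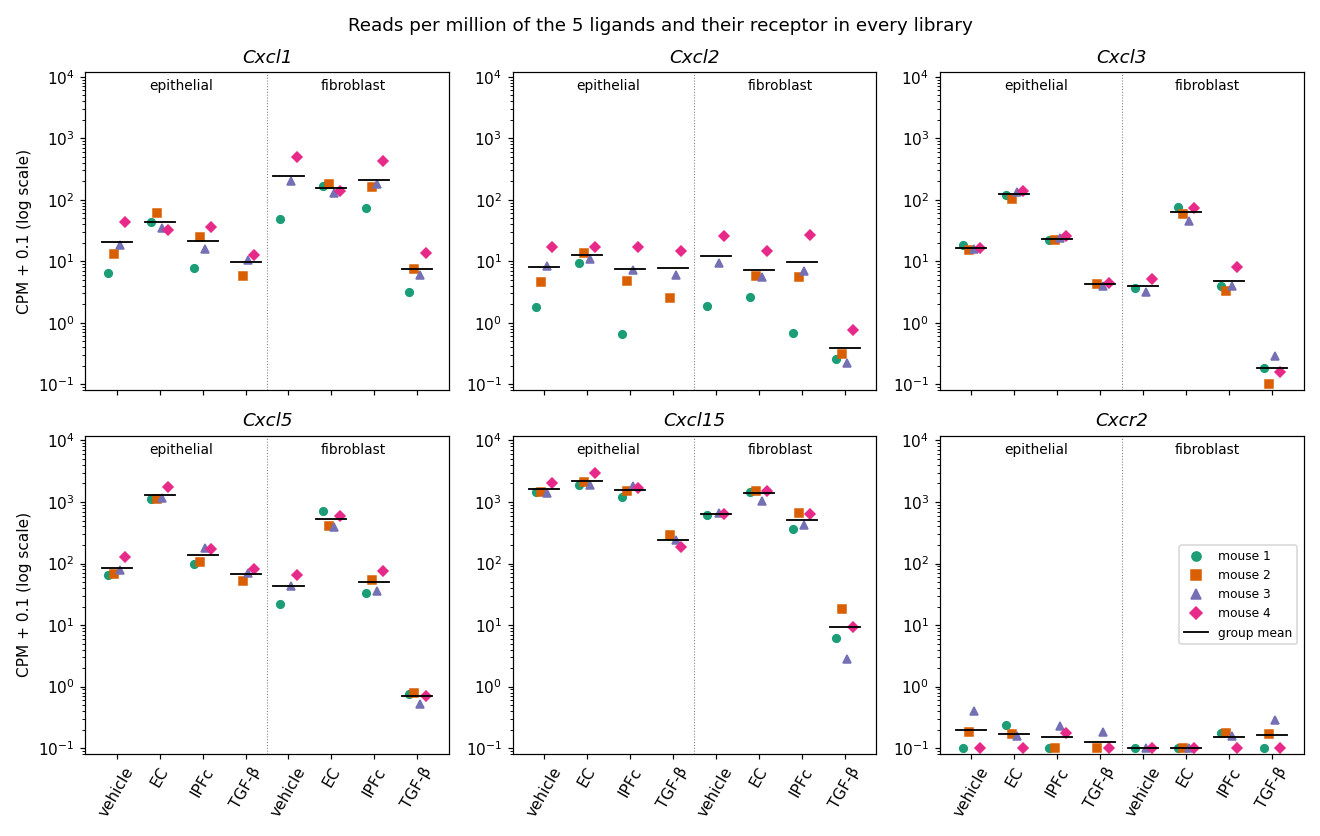
The panels plot the level of each member in every library (CPM plus 0.1, log axis) for the 8 groups, with a symbol and colour for each mouse and a black bar at the group mean. Cxcl5 and Cxcl3 were highest in EC epithelial libraries, Cxcl1 was highest in vehicle fibroblast libraries, every ligand was lowest in TGF-β fibroblast libraries, and Cxcr2 stayed at or near 0.

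Since reads grow with transcript length, levels were compared between ligands as CPM per kilobase of exon. In vehicle epithelial libraries Cxcl15 made up 88.7% ± 2.34 of the summed level of the 5 ligands (SD, n = 4), and Cxcl5 made up 6.24% ± 0.880. In EC epithelial libraries the share of Cxcl15 was 50.9% ± 1.65 and that of Cxcl5 was 40.2% ± 1.95 (n = 4). The shares in IPFc epithelial libraries, 84.1% ± 2.27 for Cxcl15 and 10.1% ± 1.49 for Cxcl5 (n = 4), lay nearer to those of vehicle than to those of EC. The Cxcl5 share still ran higher in IPFc (8.19% to 11.3%) than in vehicle epithelial libraries (5.49% to 7.30%), without overlap. Vehicle fibroblast libraries had a different mixture, with Cxcl15 at 56.9% ± 23.1 and Cxcl1 at 36.4% ± 21.8 (n = 3). TGF-β fibroblast libraries had Cxcl1 in first place at 60.7% ± 16.2 (n = 4), but of a small sum. The summed level was 850.3 ± 186 CPM per kb in vehicle, 2028 ± 431 in EC, 869.9 ± 166 in IPFc and 175 ± 4.66 in TGF-β epithelial libraries. It was 602 ± 265 in vehicle, 1222 ± 209 in EC, 507 ± 230.4 in IPFc and 12.8 ± 6.46 in TGF-β fibroblast libraries. These shares and sums are descriptions and were not tested.

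Ordered by mean CPM over the 8 groups, Cxcl1 was highest in vehicle fibroblasts, followed by IPFc and EC fibroblasts, EC, IPFc, vehicle and TGF-β epithelial cells and TGF-β fibroblasts. Only the step from EC fibroblasts to EC epithelial cells separated neighbours whose libraries did not overlap. Cxcl2 was highest in EC epithelial cells and lowest in TGF-β fibroblasts, and of the steps between neighbours only that to the last group was free of overlap. TGF-β fibroblasts (up to 0.660 CPM) still overlapped IPFc fibroblasts (from 0.586 CPM) and IPFc epithelial cells (from 0.559 CPM). Cxcl3 ran from EC epithelial cells through EC fibroblasts, IPFc and vehicle epithelial cells to IPFc fibroblasts with no overlap at any step, and the next steps to TGF-β epithelial cells and vehicle fibroblasts overlapped. Cxcl5 had EC epithelial cells and EC fibroblasts in the leading places, each clear of the next, then groups that overlapped their neighbours, and TGF-β fibroblasts clear below them. Cxcl15 had EC, vehicle and IPFc epithelial cells and EC fibroblasts at the top, each overlapping the next in the order. The EC epithelial libraries (1869 to 2907 CPM) nevertheless lay above all IPFc epithelial (1196 to 1809 CPM) and EC fibroblast libraries (1047 to 1530 CPM). Vehicle and IPFc fibroblasts overlapped in the middle, and TGF-β epithelial cells and TGF-β fibroblasts were each clear below.

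**Figure D2:**
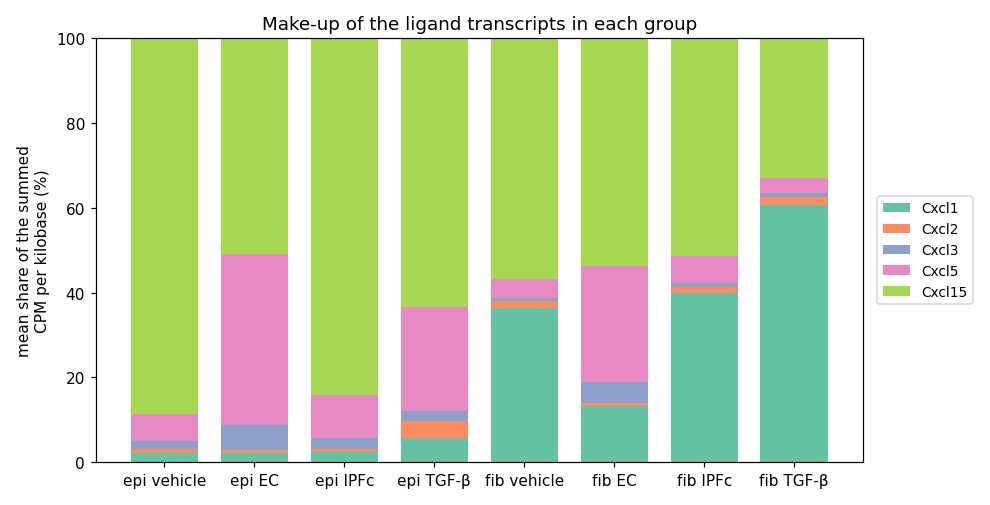
Stacked bars give the mean share of each ligand in the summed level of the 5 ligands (percent of summed CPM per kb) in the 8 groups. Cxcl15 filled 88.7% of the bar in vehicle epithelial and 50.9% in EC epithelial libraries, where Cxcl5 rose to 40.2%, and Cxcl1 filled 36.4% in vehicle and 60.7% in TGF-β fibroblast libraries.

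The first question was whether the exacerbation cocktail changed the neutrophil chemokines of epithelial cells. Cxcl5 and Cxcl3 rose strongly and in every mouse, Cxcl1 rose less and less evenly, and Cxcl2 and Cxcl15 did not pass the test. Cxcr2, which had almost no reads, is described after the ligands. With an adjusted p of 0.05 as the threshold (edgeR's quasi-likelihood test, Benjamini-Hochberg adjustment over all genes tested), 3 of the 6 members were called, all of them higher, against 4.41% of the 18024 genes tested. The median log2 fold change of the 6 members was 1.28, and over all genes tested it was 0.00.

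Cxcl5 (LIX), a chemokine known from lung epithelial cells, was at 64.7, 67.5, 78.5 and 129.9 CPM in the vehicle epithelial libraries of mice 1, 2, 3 and 4. In EC it was at 1131, 1098, 1165 and 1768 CPM. All 4 EC libraries stood far above all 4 vehicle libraries. The log2 fold change was 3.99 (SE 0.13, 15.9-fold, adjusted p = 1.62e-14), and Cxcl5 ranked 1 among all genes tested by p. Cxcl3 was at 18.6, 15.4, 15.8 and 16.3 CPM in vehicle, and at 118, 102, 131 and 136 CPM in EC. The groups did not overlap, the replicates lay close together, and the log2 fold change was 2.92 (SE 0.11, 7.55-fold, adjusted p = 1.69e-13). Over its alternatives this value ran from 2.83 to 2.99 for Cxcl3 and from 3.93 to 4.04 for Cxcl5, with the call retained in each.

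Cxcl1, which encodes KC, was at 6.34, 12.9, 18.4 and 43.8 CPM in the vehicle epithelial libraries of mice 1 to 4, and at 43.5, 60.4, 35.2 and 31.8 CPM in EC. Mice 1, 2 and 3 had more Cxcl1 with EC and mouse 4 had less, and the groups overlapped. The log2 fold change was 1.42 (SE 0.33, adjusted p = 0.0134). The call was lost without mouse 1 (0.96, adjusted p = 0.139), without mouse 2 (1.14, adjusted p = 0.127), without the mouse as a block (1.09, adjusted p = 0.344), under robust estimation (adjusted p = 0.195) and after subtraction of the fibroblast share (2.54, adjusted p = 0.391). Carried-over fibroblast RNA was estimated to account for 44.0% of the mean Cxcl1 level in EC epithelial libraries and 61.3% in vehicle.

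Cxcl2 was at 1.71, 4.49, 8.17 and 17.2 CPM in vehicle epithelial libraries and at 9.42, 13.7, 10.9 and 17.0 CPM in EC. The difference was largest in mouse 1, which had the lowest vehicle level, and in mouse 4 the levels were nearly alike. The log2 difference of 1.14 (SE 0.34) had an adjusted p of 0.0676, and without mouse 4 it passed the threshold (1.50, adjusted p = 0.024). Cxcl15, the most abundant ligand per length, was at 1448, 1481, 1404 and 2062 CPM in vehicle and at 1869, 2101, 1909 and 2907 CPM in EC. The EC level exceeded vehicle in each of the 4 mice, by 1.41-fold on average, although the groups overlapped (log2 difference 0.49, SE 0.14, adjusted p = 0.0588). This call depended on the fit, as it was reached with DESeq2 (adjusted p = 0.0297), with the 2 groups alone (adjusted p = 0.00135), with the title suffix as a covariate (adjusted p = 0.0352) and without mouse 4 (adjusted p = 0.0133).

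The fibrosis cocktail, which shares IL-1β, IL-8 and TNFα with EC by its labels, was compared with vehicle in the same fit. Cxcl5 and Cxcl3 rose, by far smaller amounts than with EC, and the other members were not called. These 2 of 6 members compare with 4.1% of all genes tested. Cxcl5 was at 98.0, 106, 179 and 175 CPM in IPFc, higher than vehicle in 4 of 4 mice, with a log2 fold change of 0.73 (SE 0.11, adjusted p = 0.00045). Cxcl3 was at 22.0, 22.5, 23.4 and 25.3 CPM, above all vehicle libraries, with a log2 fold change of 0.50 (SE 0.11, adjusted p = 0.00869). The Cxcl3 call was lost without mouse 2 (adjusted p = 0.0631) and without mouse 3 (adjusted p = 0.0651), and the Cxcl5 call was lost without the mouse as a block (adjusted p = 0.234). Cxcl1 was at 7.58, 25.0, 15.8 and 36.2 CPM, Cxcl2 at 0.559, 4.72, 7.17 and 17.2 CPM and Cxcl15 at 1196, 1499, 1809 and 1704 CPM, and each overlapped its vehicle group. Their log2 differences were 0.12, −0.15 and −0.04, with 95% intervals of −0.56 to 0.80, −0.87 to 0.58 and −0.35 to 0.26. After subtraction Cxcl1 stood at −2.30 (adjusted p = 0.716) and Cxcl15 at 0.03 (adjusted p = 1), again not called.

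TGF-β alone lowered the epithelial chemokines. Cxcl15 and Cxcl3 fell in all mice with no overlap between groups, Cxcl1 and Cxcl5 fell less, and Cxcl2 did not pass the test. The 4 lower members of 6 stand beside 41.1% of all genes called in this comparison. Cxcl15 was at 286, 239 and 185 CPM in the TGF-β libraries of mice 2, 3 and 4, with a log2 fold change of −2.91 (SE 0.18, adjusted p = 7.08e-11). Cxcl3 was at 4.14, 3.81 and 4.35 CPM, a change of −2.09 (SE 0.15, adjusted p = 4.64e-10). Both were called under all 13 alternatives run for this comparison, between −3.21 and −2.50 for Cxcl15 and between −2.23 and −1.69 for Cxcl3. Cxcl5 was at 51.3, 69.0 and 82.9 CPM (log2 −0.51, SE 0.13, adjusted p = 0.00263), and Cxcl1 was at 5.63, 10.5 and 12.4 CPM (log2 −1.28, SE 0.39, adjusted p = 0.0114). After the estimated fibroblast share, near 29.3% in these libraries, was subtracted, the difference was −0.08 for Cxcl5 (adjusted p = 0.715) and 0.04 for Cxcl1 (adjusted p = 0.984). That estimate would also count fibroblast markers expressed by epithelial cells. Without the mouse as a block neither ligand was called (adjusted p = 0.245 and 0.0823). Cxcl2 was at 2.39, 5.99 and 14.5 CPM (log2 −0.50, SE 0.38, adjusted p = 0.329, and 0.02 with an adjusted p of 0.984 after subtraction).

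**Figure D3:**
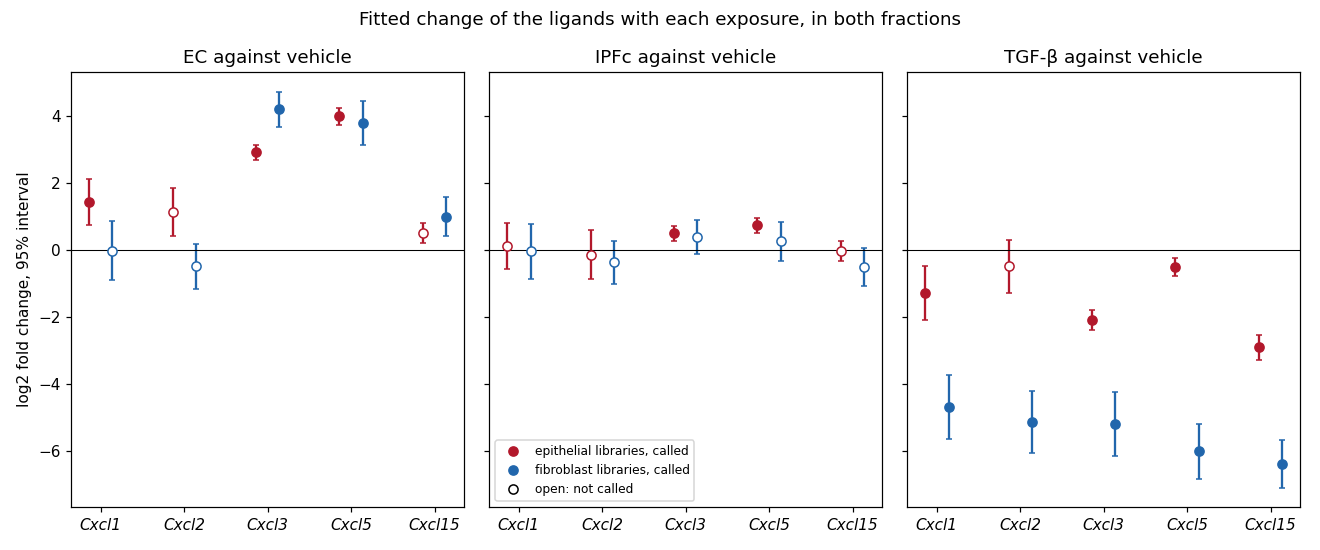
Points give the log2 fold change of each ligand against vehicle and bars its 95% interval, for EC, IPFc and TGF-β in epithelial (red) and fibroblast (blue) libraries, with filled points for calls at an adjusted p of 0.05. Cxcl3 and Cxcl5 stood to the EC side in both fractions (2.92 and 3.99 in epithelial, 4.20 and 3.78 in fibroblast libraries), IPFc points lay between −0.51 and 0.73, and with TGF-β all ligands were at −4.69 or below in fibroblast libraries.

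The treatments were also set directly against each other in epithelial libraries. Between EC and IPFc, 5 of 6 members were higher with EC, while 4.17% of all genes were called. The log2 difference was 3.26 for Cxcl5 (SE 0.12, adjusted p = 1.45e-13) and 2.42 for Cxcl3 (SE 0.11, adjusted p = 2.2e-12). Those of Cxcl1 (1.30, adjusted p = 0.023), Cxcl2 (1.29, adjusted p = 0.037) and Cxcl15 (0.54, adjusted p = 0.0378) were near the threshold and were lost under several alternatives. Without mouse 1, for example, they had adjusted p-values of 0.186, 0.179 and 0.208. After subtraction Cxcl2 (1.54, adjusted p = 0.144) and Cxcl15 (0.46, adjusted p = 0.282) were not called. Between EC and TGF-β, 5 of 6 were higher with EC, beside 43.1% of all genes called, with log2 differences from 1.64 for Cxcl2 to 5.01 for Cxcl3, which ranked 1 among all genes. After subtraction Cxcl1 (2.50, adjusted p = 0.112) and Cxcl2 (1.38, adjusted p = 0.0595) were no longer called there. Between IPFc and TGF-β, 4 of 6 were higher with IPFc, beside 37.2% of all genes, with 2.87 for Cxcl15, 2.59 for Cxcl3, 1.24 for Cxcl5 and 1.40 for Cxcl1. The Cxcl1 value turned to −2.34 (adjusted p = 0.165) after subtraction, and Cxcl2 was not called (0.35, adjusted p = 0.516, and −0.16 with an adjusted p of 0.849 after subtraction).

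The same comparisons were made in the fibroblast fraction, where Cxcr2, with a mean below 1 read, could not be tested and 5 members remained. With EC, Cxcl3, Cxcl5 and Cxcl15 were higher in 3 of 3 mice and did not overlap vehicle, and Cxcl1 and Cxcl2 were not called. As calls, these 3 of 5 stand beside 7.11% of 18048 genes tested, and the share of all genes without overlap was not counted. Cxcl3 was at 3.54, 3.10 and 5.00 CPM in the vehicle fibroblast libraries of mice 1, 3 and 4, and at 77.6, 58.0, 45.4 and 72.9 CPM in EC (log2 4.20, SE 0.25, adjusted p = 4.12e-08). Cxcl5 was at 22.0, 42.6 and 65.3 CPM in vehicle and at 727, 415, 395 and 589 CPM in EC (log2 3.78, SE 0.31, adjusted p = 4.38e-06). Cxcl15 was at 613, 667 and 648 CPM in vehicle and at 1478, 1513, 1047 and 1530.5 CPM in EC (log2 0.99, SE 0.28, adjusted p = 0.0404). The estimated epithelial share of these libraries rose over the same contrast, from 22.0% to 45.7%. Carried-over epithelial RNA was estimated at 89.0% of the mean Cxcl3 level in EC fibroblast libraries, at 115% for Cxcl5 and at 74.6% for Cxcl15. After subtraction none of the 3 was called, with a log2 difference of 4.34 for Cxcl3 (adjusted p = 0.9), of −4.68 for Cxcl5 (adjusted p = 0.892) and of 0.68 for Cxcl15 (adjusted p = 0.977). Over all genes 32 were called after subtraction, against 1284 as measured, so the loss was not particular to these ligands. The Cxcl15 call was also lost without mouse 3 (adjusted p = 0.0631), without mouse 4 (adjusted p = 0.324), without the mouse as a block (adjusted p = 0.122) and with the title suffix as a covariate (adjusted p = 0.0736).

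Cxcl1 had the next largest share of fibroblast ligand mRNA after Cxcl15 in vehicle, and its level varied with the culture. In vehicle it was at 48.2, 203 and 489 CPM in mice 1, 3 and 4, and in EC at 166, 183, 130.2 and 139 CPM. The EC libraries lay within the range of vehicle, and the log2 difference was −0.03 (SE 0.42, 95% interval −0.91 to 0.85, adjusted p = 0.976). After subtraction it was 0.31 (adjusted p = 0.96). Without mouse 1 it was −0.92 and was called (adjusted p = 0.0152). Cxcl2 was at 1.81, 9.29 and 25.4 CPM in vehicle and at 2.54, 5.67, 5.54 and 14.5 CPM in EC (log2 −0.49, SE 0.32, adjusted p = 0.393).

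IPFc changed none of the 5 ligands in fibroblast libraries, where 0.449% of all genes were called with edgeR. At an unadjusted p under 0.05 there was also none, the lowest being 0.0784 for Cxcl15 (log2 −0.51, SE 0.27, 0 of 3 mice higher). Cxcl1 was at 74.4, 163, 180.0 and 421 CPM, Cxcl2 at 0.586, 5.47, 6.74 and 26.2 CPM, Cxcl3 at 3.89, 3.15, 3.94 and 7.90 CPM, Cxcl5 at 33.6, 53.0, 36.1 and 74.5 CPM and Cxcl15 at 358, 653, 426 and 638 CPM. Each of these groups overlapped its vehicle group. DESeq2 also called none. The log2 differences of Cxcl3 (0.38) and Cxcl5 (0.25) stood at −1.15 and −1.73 after subtraction, both with an adjusted p of 1.

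TGF-β left the fibroblast fraction almost without neutrophil chemokine mRNA. All 5 ligands tested were called and were lower in 3 of 3 mice, beside 19.2% of all genes called. None overlapped vehicle, and the share of all genes without overlap was not counted. The median log2 fold change was −5.20 against −0.02 over all genes. Cxcl1 was at 3.09, 7.42, 5.82 and 13.8 CPM (log2 −4.69, SE 0.45, adjusted p = 5.77e-07). Cxcl2 was at 0.162, 0.206, 0.123 and 0.660 CPM, which is 18 reads in all (log2 −5.15, SE 0.44, adjusted p = 1.48e-07). These 2 stayed called after the epithelial share was subtracted, at −5.04 (adjusted p = 0.000502) and −6.45 (adjusted p = 0.00242). Cxcl15 was at 6.17, 18.1, 2.76 and 9.24 CPM (log2 −6.39, adjusted p = 9.33e-10), Cxcl5 at 0.650, 0.687, 0.429 and 0.600 CPM (log2 −6.02, adjusted p = 7.27e-09) and Cxcl3 at 0 to 0.184 CPM, 5 reads in 4 libraries (log2 −5.20, adjusted p = 1.75e-07). After subtraction none of these 3 ligands was called (adjusted p = 0.299 for Cxcl15, 0.158 for Cxcl5 and 0.83 for Cxcl3). Over all genes 769 were called after subtraction, against 3457 as measured. The estimated epithelial share was 22.0% in vehicle and 2.34% in TGF-β fibroblast libraries, so it fell over the same contrast as all 5 ligands. The cause was not tested.

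Between treatments in the fibroblast fraction, 3 of 5 ligands were higher with EC than with IPFc, beside 10.4% of all genes. These were Cxcl3 (log2 3.82, adjusted p = 1.95e-08), Cxcl5 (3.53, adjusted p = 8.45e-07) and Cxcl15 (1.50, adjusted p = 0.00121), and none was called after subtraction (adjusted p = 0.702, 0.919 and 0.923), where Cxcl5 turned to −2.95. Over all genes 16 were called after subtraction, against 1885 as measured. All 5 were higher with EC than with TGF-β, beside 35.4% of all genes, with log2 differences from 4.65 for Cxcl1 to 9.80 for Cxcl5. All 5 were higher with IPFc than with TGF-β, beside 17.4% of all genes, from 4.64 for Cxcl1 to 6.27 for Cxcl5. Of these, Cxcl1 and Cxcl2 were still called after subtraction, against both EC and IPFc, and the other 3 were not. Over all genes 1243 were then called between EC and TGF-β (6392 as measured) and 606 between IPFc and TGF-β (3141 as measured).

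The fractions of a culture were then compared with each other, with the culture as a block. Cxcl1 was higher in fibroblast libraries in vehicle, EC and IPFc and was not called in TGF-β, while Cxcl3, Cxcl5 and Cxcl15 were higher in epithelial libraries in every treatment. In vehicle, 4 of 5 ligands were called, 3 higher and 1 lower in epithelial libraries, beside 47.1% of 18364 genes. Cxcl1 was lower in epithelial than in fibroblast libraries (log2 −3.20, SE 0.23, adjusted p = 4.04e-08), in 3 of 3 cultures. Cxcl3 was higher by 2.24 (adjusted p = 3.22e-06), Cxcl15 by 1.43 (adjusted p = 0.000812) and Cxcl5 by 1.245 (adjusted p = 0.000372), and Cxcl2 was not called (−0.20, 95% interval −0.78 to 0.39). In EC, 5 of 5 were called, 4 higher and 1 lower, beside 41.9% of all genes. Cxcl1 stood at −1.82 (SE 0.18, adjusted p = 6.61e-07), Cxcl5 at 1.37 (adjusted p = 4.81e-05), Cxcl2 at 1.09 (adjusted p = 0.00139), Cxcl3 at 1.04 (adjusted p = 0.000656) and Cxcl15 at 0.72 (adjusted p = 0.033). The Cxcl15 call in EC was lost without mouse 2 (adjusted p = 0.0575) and without mouse 4 (adjusted p = 0.128).

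In IPFc, 4 of 5 ligands were called between the fractions, 3 higher and 1 lower in epithelial libraries, beside 52.2% of all genes, with Cxcl1 at −3.18, Cxcl3 at 2.46, Cxcl15 at 1.69 and Cxcl5 at 1.60. In TGF-β, 4 of 5 were higher in epithelial libraries, beside 39.8% of all genes, with Cxcl5 at 6.77, Cxcl3 at 5.38, Cxcl15 at 4.72 and Cxcl2 at 4.40, while Cxcl1 was at 0.00 (95% interval −0.47 to 0.48). After each library was corrected for the share of its partner, Cxcl1 remained lower in epithelial libraries in vehicle (−4.74, adjusted p = 0.0117), EC (−3.02, adjusted p = 0.0223) and IPFc (−10.18, adjusted p = 0.000437). Carried-over fibroblast RNA was estimated at 100.5% of the mean Cxcl1 level in IPFc epithelial libraries. Counts that would have turned negative were taken as none, so the size of the IPFc value is not a measured difference. Cxcl15 was not called in any treatment after that correction, with adjusted p-values from 0.0746 in TGF-β to 0.35 in EC. Cxcl5 was not called in vehicle (adjusted p = 0.406) or IPFc (adjusted p = 0.146), and Cxcl3 was not called in EC (adjusted p = 0.0561) or TGF-β (adjusted p = 0.0593).

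The ligands can be set beside the epithelial markers that crossed into the fibroblast libraries. In each of 14 cultures with both fractions, a gene's level in the fibroblast library was taken as a percentage of that in the epithelial partner. The range of the epithelial markers was wide, for example 12.0% to 85.6% in the vehicle culture of mouse 1. In the EC culture of mouse 1 it ran from 15.2% to 199%, and in that of mouse 4 from 37.2% to 103%. A gene at equal levels in both fractions would also lie inside it in EC. A place inside the range therefore does not tell the source of the RNA, which was not tested. Cxcl15 fell inside the range of the epithelial markers in 14 of 14 cultures, with means of 40.4% in vehicle, 64.6% in EC, 33.6% in IPFc and 4.15% in TGF-β. Cxcl3 and Cxcl5 each fell inside it in 12 of 14 cultures. Cxcl2 did so in 7 of 14, with means of 51.2% in EC and 5.07% in TGF-β but 122% in vehicle and 117% in IPFc. Cxcl1 did so in 0 of 14, at 994% in vehicle, 983% in IPFc, 373% in EC and 99.3% in TGF-β. Read the other way, the epithelial level of Cxcl1 as a percentage of the fibroblast partner lay inside the range of the fibroblast markers in 11 of 14 cultures, and that of the other ligands in 0 of 14.

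**Figure D4:**
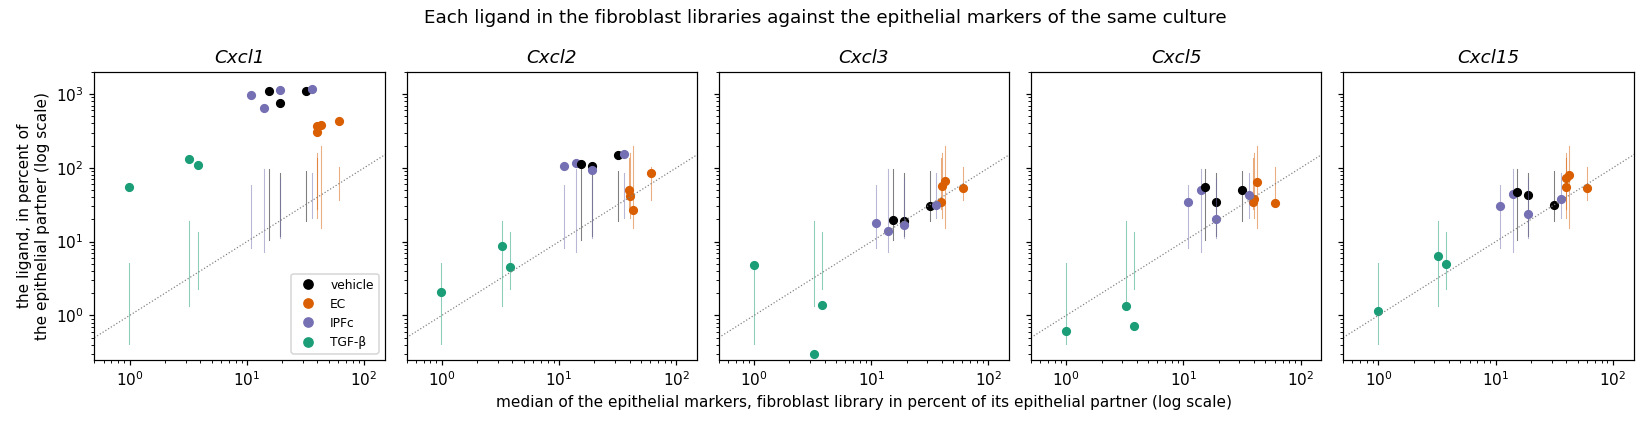
Each of 5 panels plots, for 14 cultures coloured by treatment, the level of a ligand in the fibroblast library as a percentage of its epithelial partner (y, log axis) against the median of the epithelial markers on the same scale (x, log axis). Thin vertical lines give the range over the markers, the dotted line is equality, and a value of 0 is drawn near the lower edge. Cxcl15 lay inside the marker range in 14 of 14 cultures and Cxcl1 above it, at 373% to 994% on average in the treatments other than TGF-β.

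Whether the fractions responded differently was tested as an interaction, the epithelial log2 fold change minus that of fibroblasts. For EC, 1 of 5 ligands was called, beside 4.59% of all genes. Cxcl3 rose less in epithelial than in fibroblast libraries (−1.28, SE 0.24, adjusted p = 0.00268). This was lost without the block (−1.15, adjusted p = 0.165) and after subtraction (−1.21, adjusted p = 0.873). Cxcl1 (1.46, adjusted p = 0.209) and Cxcl2 (1.66, adjusted p = 0.0902) had positive differences that were called without mouse 1 (1.90 with adjusted p = 0.0263, and 1.40 with adjusted p = 0.0453), and Cxcl2 was also called after subtraction (3.91, adjusted p = 0.02). Cxcl5 was likewise called without mouse 1 (0.20 with all mice, and 0.77 with adjusted p = 0.0271 without mouse 1). For IPFc, 0 of 5 ligands were called, beside 0.229% of all genes, and the differences ran from 0.13 for Cxcl3 to 0.48 for Cxcl5, with no unadjusted p under 0.135 and none called by DESeq2. After subtraction the Cxcl1 difference turned from 0.17 to −2.62 (adjusted p = 0.946). For TGF-β, 5 of 5 were called, beside 27.5% of all genes, all of them lowered more in fibroblast libraries. Only 2 mice had vehicle and TGF-β libraries in both fractions, and each of the 5 differences was positive in these 2. The differences were 5.53 for Cxcl5 (adjusted p = 4.83e-10), 4.68 for Cxcl2 (1.91e-05), 3.49 for Cxcl15 (6.32e-08), 3.43 for Cxcl1 (0.000293) and 3.13 for Cxcl3 (3.47e-05). After subtraction Cxcl5, Cxcl2 and Cxcl1 were still called (adjusted p = 0.0115, 0.000279 and 0.0341), and Cxcl3 and Cxcl15 were not (adjusted p = 0.72 and 0.405).

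Cxcr2, which encodes a receptor of neutrophils for ELR chemokines, was barely detected. In epithelial libraries it had 15 reads in all, none in 7 of 15 libraries and at most 6 in a library. In fibroblast libraries it had 7 reads in all, none in 10 of 15 and at most 3 in a library. Group means ran from 0 to 0.0939 CPM, at or below the floor of 3 counts, so that no fold is given. In epithelial libraries it was tested and not called (adjusted p = 0.981 for EC). In vehicle and EC fibroblast libraries it had no read, which allows up to 0.163 to 0.587 CPM in a library. Genes of the pathway below the receptor were present. Of 11 genes of CXCR2 signal transduction (G proteins, arrestins, receptor kinases and their effectors), 10 were tested in epithelial libraries. EC and IPFc changed 0 of them by edgeR, beside 4.41% and 4.1% of all genes, and 0 by DESeq2, with 2 and 0 at an unadjusted p under 0.05. TGF-β changed 5, 3 higher and 2 lower, beside the 41.1% of all genes, and 2 of these were called after subtraction. The leading genes were Rac2, a GTPase of blood cells (−2.38, adjusted p = 2.13e-05), the receptor kinase Grk2 (−0.47, adjusted p = 0.000265) and the phospholipase gene Plcb3 (0.49, adjusted p = 0.000512, and 0.0519 after subtraction). In fibroblast libraries 1 of 11 was called with EC, beside 7.11% of all genes, the G protein subunit gene Gnb1 (0.42, adjusted p = 0.0238). With IPFc 0 were called by edgeR, beside 0.449% of all genes, and 0 by DESeq2 or at an unadjusted p under 0.05. With TGF-β 2 were called, beside the 19.2% of all genes, with Grk6 higher (0.56, adjusted p = 0.00131) and Rac2 lower (−3.68, adjusted p = 0.00427), and none of these 3 was called after subtraction.

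The level of Cxcl1 and Cxcl2 also followed the mouse. Mouse 4 had the highest Cxcl2 level in 8 of 8 groups, and mouse 1 the lowest in 6 of the 7 groups in which it had a library. For Cxcl1, mouse 4 was highest in 6 of 8 groups and mouse 1 lowest in 5 of 7. The highest vehicle epithelial library had 6.90 times the Cxcl1 and 10.1 times the Cxcl2 of the lowest, and in vehicle fibroblasts the ratios were 10.1 and 14.0. In EC the ratios were smaller, 1.90 and 1.81 in epithelial libraries and 1.41 and 5.71 in fibroblasts. For Cxcl2 they reached 30.7 in IPFc epithelial and 44.7 in IPFc fibroblast libraries. Cxcl3 differed little between mice in epithelial libraries, by 1.14 to 1.34 times. These ratios are descriptions, and as the same mice gave all groups they are not independent of each other. Cxcl1, Cxcl2 and Cxcl3 are close paralogs, and reads shared between them could have been split in counting.

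Genes around the chemokines were then counted by role, by the same edgeR test against vehicle. The share of all genes called against vehicle was 4.41% with EC, 4.1% with IPFc and 41.1% with TGF-β in epithelial libraries, and 7.11%, 0.449% and 19.2% in fibroblasts. These shares hold for edgeR's adjusted p only. Counts at an unadjusted p, by DESeq2 or after subtraction are given without such a share. This includes those of the CXCR2 genes above, and all of these counts are descriptions only. Among 7 growth factors of neutrophils and macrophages and IL-17 receptor genes, of which 6 were tested, EC raised 2 in epithelial libraries (4.41% of all genes were called). Csf3, which encodes the neutrophil growth factor G-CSF, was at 0 to 0.640 CPM in vehicle and at 3.98 to 21.3 CPM in EC epithelial libraries, with no overlap (log2 5.34, SE 0.45, adjusted p = 9.94e-08), and this was called after subtraction too (5.51, adjusted p = 0.000163). Csf2, which encodes GM-CSF, rose by 1.36 (adjusted p = 0.0419, and 0.161 after subtraction). In fibroblast libraries, where 7.11% of all genes were called, EC raised Csf3 (3.40, adjusted p = 0.00379) and lowered Csf1 (−1.003, adjusted p = 0.00767), the macrophage growth factor, and neither was called after subtraction (adjusted p = 0.661 and 0.625). IPFc changed 0 of 6 in either fraction, with 1 in each at an unadjusted p under 0.05 and 0 by DESeq2. TGF-β changed 5 in epithelial libraries, 2 higher and 3 lower, beside 41.1% of all genes, of which 4 were called after subtraction. These were led by Csf1 (2.32, adjusted p = 4.79e-10), Il17rc (−0.68, adjusted p = 9.33e-05) and Il17ra (−0.67, adjusted p = 0.000153). In fibroblasts TGF-β changed 1, beside 19.2% of all genes, the IL-17 adaptor gene Traf3ip2 (−0.79, adjusted p = 0.00113, and 0.291 after subtraction).

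Of 17 NF-kB and C/EBP regulators of chemokine transcription, EC changed 5 in epithelial libraries, 4 higher and 1 lower, beside the 4.41% of all genes. The leading genes were Cebpd, a C/EBP factor induced by cytokines (1.64, adjusted p = 3.71e-06), the NF-kB subunit gene Nfkb1 (0.43, adjusted p = 0.00201) and Nfkbiz, which encodes the coactivator IκBζ (0.80, adjusted p = 0.00262). After subtraction 2 of the 5 were called, with Nfkb1 among them (adjusted p = 0.00733) and Cebpd (adjusted p = 0.172) and Nfkbiz (adjusted p = 0.0771) not. In fibroblast libraries EC changed 2, beside the 7.11% of all genes, with Cebpd higher (0.92, adjusted p = 0.0352) and the inhibitor gene Tnfaip3 lower (−1.16, adjusted p = 0.0295), and neither was called after subtraction. IPFc changed 0 of 17 by edgeR in both fractions. At an unadjusted p under 0.05 there were 3 in epithelial and 1 in fibroblast libraries, and DESeq2 called 1 and 0. TGF-β lowered 8 of 17 in fibroblast libraries and raised none, beside the 19.2% of all genes, and 4 of the 8 were called after subtraction. The leading genes were the inhibitor gene Nfkbia (−2.19, adjusted p = 1.24e-05), Bcl3 (−1.46, adjusted p = 2.61e-05) and Tnfaip3 (−1.89, adjusted p = 0.000194), which were all among those 4. In epithelial libraries TGF-β changed 9, 6 higher and 3 lower, beside the 41.1% of all genes, and 5 of these were called after subtraction. They were led by Ikbkg (0.80, adjusted p = 1.46e-06), Tnfaip3 (1.42, adjusted p = 0.000134) and Tnip1 (0.43, adjusted p = 0.00113).

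Among 7 chemokine mRNA decay factors, EC raised Zc3h12a, which encodes the RNase Regnase-1, from 9.89 to 15.96 CPM in vehicle to 35.1 to 64.7 CPM in EC epithelial libraries (2.06, adjusted p = 4.65e-08), and lowered Zfp36 there (−0.51, adjusted p = 0.00594). Both were called after subtraction (adjusted p = 5.69e-05 and 0.0338). In fibroblasts EC raised Zc3h12a (0.84, adjusted p = 0.0248, and 0.626 after subtraction). TGF-β lowered 3 of 7 in fibroblasts, beside 19.2% of all genes, namely Zfp36 (−1.49, adjusted p = 9.84e-06), Zfp36l1 (−0.96, adjusted p = 1.35e-05) and Zc3h12a (−0.66, adjusted p = 0.0385), of which Zfp36 and Zfp36l1 were called after subtraction. It changed 3 of 7 in epithelial libraries, beside 41.1% of all genes. It lowered Zfp36 there (−0.85, adjusted p = 7.11e-06) and raised Zfp36l1 (0.80, adjusted p = 3.82e-07). Zfp36l2 was higher there as measured (0.43, adjusted p = 0.0112) and lower after subtraction (−3.27, adjusted p = 0.000572). IPFc changed 0 of 7 in either fraction, with 1 at an unadjusted p under 0.05 in epithelial libraries and 0 in fibroblasts, and 0 by DESeq2.

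Of 7 tested receptor genes for the cytokines of EC, EC changed 0 in epithelial libraries by edgeR, where 2 had an unadjusted p under 0.05 and DESeq2 called 1. In fibroblasts EC changed 1, the TNF receptor gene Tnfrsf1b (0.57, adjusted p = 0.0326, and 0.604 after subtraction). IPFc changed 0 of 7 in either fraction, with 2 in each at an unadjusted p under 0.05, and DESeq2 called 0 in epithelial and 1 in fibroblast libraries. TGF-β lowered Tnfrsf1b in epithelial libraries (−0.94, adjusted p = 2.5e-07) and in fibroblasts (−1.16, adjusted p = 2.22e-05), both also after subtraction (adjusted p = 0.000214 and 0.0129). It raised the antagonist gene Il1rn (0.77, adjusted p = 0.00361) and Il6st (0.28, adjusted p = 0.0383) in epithelial libraries, neither of them called after subtraction.

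The CXC chemokines without the ELR motif, which mostly act on lymphocytes and other cells, were counted in the same way. Of 5 tested out of 9, EC raised Pf4 in epithelial libraries, from a mean of 0.387 to 2.95 CPM (2.97, adjusted p = 0.000693, and 0.0613 after subtraction). In fibroblasts EC changed 4, 2 higher and 2 lower, beside 7.11% of all genes. Among them Cxcl12, the ligand of Cxcr4, fell (−1.32, adjusted p = 1.87e-05) and was the 1 gene called after subtraction (−0.89, adjusted p = 0.0251), while Cxcl16 (1.17, adjusted p = 0.00112) and Pf4 (2.48, adjusted p = 0.0165) were not. Cxcl16 turned to −4.26 there (adjusted p = 0.582). IPFc lowered Cxcl16 in epithelial libraries (−0.29, adjusted p = 0.0442) and Cxcl12 in fibroblasts (−0.84, adjusted p = 0.00441), which had adjusted p-values of 0.409 and 0.0859 after subtraction. With TGF-β 3 of 5 were called in fibroblasts, beside 19.2% of all genes, and 2 of 5 in epithelial libraries, beside 41.1%. TGF-β lowered Cxcl17 (−3.97, adjusted p = 2.5e-08), Cxcl16 (−2.39, adjusted p = 7.76e-08) and Cxcl10 (−2.51, adjusted p = 0.000208) in fibroblasts, and of these Cxcl10 was called after subtraction (−2.89, adjusted p = 0.0159). In epithelial libraries TGF-β raised Cxcl12 (3.06, adjusted p = 1.95e-10, and 0.0215 after subtraction) and lowered Cxcl17 (−0.69, adjusted p = 0.000349, and 0.249 after subtraction).

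A list of another ELR chemokine and of receptors for neutrophil attractants had 2 of 7 genes tested in epithelial and 3 of 7 in fibroblast libraries. Ppbp, an ELR chemokine of platelets within the same gene cluster, was not called with EC in epithelial libraries (0.97, adjusted p = 0.144) and was higher with TGF-β (1.04, adjusted p = 0.0329), where the leukotriene receptor gene Ltb4r1 was lower (−3.78, adjusted p = 0.0028), both also after subtraction. EC and IPFc changed 0 in either fraction and TGF-β 0 in fibroblasts by edgeR and by DESeq2, with 0 to 2 at an unadjusted p under 0.05. Among 8 genes of chemokine binding and cleavage, EC lowered the peptidase gene Dpp4 in epithelial libraries (−1.12, adjusted p = 0.00362, and 0.0459 after subtraction). It raised the protease gene Mmp12 (2.01, adjusted p = 0.00186, and 0.0516 after subtraction) and the syndecan gene Sdc1 (0.56, adjusted p = 0.00569, and 0.159 after subtraction) in fibroblasts. TGF-β lowered Dpp4 (−4.62, adjusted p = 8.99e-08), the syndecan gene Sdc4 (−1.43, adjusted p = 8.55e-06) and the gelatinase gene Mmp9 (−1.09, adjusted p = 4.91e-05) in fibroblasts, all 3 also after subtraction. In epithelial libraries it raised Sdc1 (0.38, adjusted p = 0.00081), and Hspg2, which encodes perlecan, was higher as measured (1.68, adjusted p = 6.57e-06) and lower after subtraction (−3.25, adjusted p = 0.0438). IPFc changed 0 of this list in either fraction by edgeR, with 2 in epithelial and 3 in fibroblast libraries at an unadjusted p under 0.05, and DESeq2 called 0 and 2.

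The genes with the most similar pattern over the 15 libraries of a fraction were found by Pearson's r of log2 CPM after the mean of each mouse was taken out, among 12874 genes in epithelial and 12981 in fibroblast libraries. These values are descriptions, since the libraries share treatments and the mixing of fractions. In epithelial libraries the closest to Cxcl5 were Lcn2 (r = 0.994), Steap4 (0.986) and Cp (0.983), and the closest to Cxcl3 were Ak4 (0.987), Pglyrp1 (0.986) and Ifngr2 (0.985). Cxcl15 lay closest to Ddx56 (0.995), Rfc5 (0.994) and Drg2 (0.994), Cxcl1 to Muc20 (0.925), Arhgap26 (0.908) and Slc44a4 (0.908), and Cxcl2 to Rell1 (0.873), Hpx (0.865) and Ccl20 (0.861). In fibroblast libraries Cxcl15 followed Cd36 (0.999), Scgb1a1 (0.999) and Atp1b1 (0.997), of which Scgb1a1 is a defining gene of club cells. Cxcl3 followed Cd14 (0.995), Pglyrp1 (0.991) and Rpl29 (0.987) there, and Cxcl5 followed Rbpms (0.994), Fam107b (0.990) and Serping1 (0.989). Cxcl1 in fibroblast libraries lay closest to Casp4 (0.984), Socs3 (0.978) and Hpse (0.978), and Cxcl2 to Tmem213 (0.975), Slc15a2 (0.975) and Fam83a (0.973). Between the members themselves, r was 0.934 for Cxcl3 and Cxcl5 and 0.85 for Cxcl1 and Cxcl2 in epithelial libraries, and 0.984 and 0.946 in fibroblast libraries.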

How the data were processed

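The values analysed were raw counts of reads per Ensembl gene, 1 deposited table per library. Before deposit the authors had total RNA sequenced on an Illumina NovaSeq instrument from directional libraries, and reads were trimmed, aligned and counted by a service provider. Per the labels the processing used Trimmomatic 0.30 and DESeq2 1.34.0 with the build GRCm39, whereas the study's methods name GRCm38, and aligner, counter and strand setting are not given in the sources used here. Counts carry no genome coordinates, so positions and promoters were taken from RefSeq on GRCm38.p6 and concern no measured value.

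Groups and mouse numbers came from the sample labels. Genes with a mean count of at least 1 were tested with edgeR 4.0.16 in R 4.3.3 (TMM, quasi-likelihood test, two-sided, Benjamini-Hochberg over all genes tested). Treatments were compared within a fraction in a fit over its 15 libraries with the mouse as a block, fractions with the culture as a block, and responses by an interaction with the mouse within its fraction as a block. The interaction fit did not pair the fractions of a culture. The mouse number names the same animal, so the samples are paired. Deviations from the group means correlated between same-mouse libraries at a mean r of 0.146 (−0.0172 to 0.347) in the epithelial fraction. In fibroblasts this was 0.177 (−0.0972 to 0.43). Between libraries of other mice the mean r was −0.124 and −0.129. Taking out group means makes r negative within a group, so these negative values are partly set by the method. Per-million values (CPM) were counts over the library total, per kilobase of the Ensembl canonical transcript's exons where genes were compared.

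To gauge mixing, the share of the other fraction times the partner library's CPM was subtracted from each library. Counts that would have turned negative were taken as none. Where the partner was not analysed here, the mean of the other libraries of that treatment stood in. Other alternatives were DESeq2 1.42.0, its size factors, a mean count of at least 10, no filter, no block, robust estimation, the suffix of the sample titles as a covariate, 2 groups alone, and each mouse left out. On simulated counts for the 18024 genes of the epithelial EC comparison, 93 of 100 genes changed by 1 on the log2 scale and 100 of 100 changed by 2 were recovered. For fibroblast EC against vehicle these were 86 and 98 of 100. Between fractions in EC they were 78 and 99, and for the EC interaction 71 and 94. The simulated counts held no difference between mice, so the rates do not carry over to genes that varied with the mouse, such as Cxcl1 and Cxcl2. Replicates differed beyond sampling noise in all groups (chi-square per degree of freedom 5.48 to 76.9), so none was counted as a repeat. All 6 members were named in every comparison, from each gene list at most 3 called genes with the lowest p, and as similar genes the 3 with the highest r. The members and lists were chosen with earlier results of these data known.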

Additional observations from a re-analysis of the deposited data

Results flagged for a closer look

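Of 35 groups of 4 libraries or more checked for a library far from the others, 5 had one, and about 1 in 20 does by chance. Cxcl2 in TGF-β fibroblasts was at 0.660 CPM in mouse 4, against 0.123 to 0.206 in the other mice, all of them 11 reads or fewer. Cxcl3 in IPFc fibroblasts was at 7.90 CPM in mouse 4, against 3.15 to 3.94 CPM. Cxcl5 in EC epithelial cells was at 1768 CPM in mouse 4, against 1098 to 1165 CPM, and Cxcl15 in vehicle epithelial cells was at 2062 CPM in mouse 4, against 1404 to 1481 CPM. Cxcl15 in EC fibroblasts was at 1047 CPM in mouse 3, against 1478 to 1530.5 CPM. The epithelial and fibroblast responses differed by the interaction test for Cxcl3 with EC, by −1.28, and for all 5 ligands with TGF-β, by 3.43 for Cxcl1, 4.68 for Cxcl2, 3.13 for Cxcl3, 5.53 for Cxcl5 and 3.49 for Cxcl15 on the log2 scale. The epithelial share of the fibroblast libraries differed over the same contrasts, at 22.0% in vehicle, 45.7% in EC and 2.34% in TGF-β.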

How the results depend on the processing

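Of 1207 values of single members under an alternative, 1111 kept their side of the threshold, 72 lost a call, 20 gained one and 4 were called values that changed sign. Of values that were not called, 38 also changed sign, 9 of them under subtraction. The 4 called values changed sign after subtraction of the other fraction: Cxcl1 in epithelial TGF-β against vehicle (0.042, adjusted p = 0.984) and IPFc against TGF-β (−2.34), and Cxcl5 in fibroblast EC against vehicle (−4.68) and against IPFc (−2.95). Subtraction left 2 of 4 called members in epithelial TGF-β against vehicle, 3 of 5 in EC against IPFc and 3 of 5 in EC against TGF-β. Over all genes 4554, 384 and 5242 were then called in these comparisons, against 7400, 751 and 7764 as measured. In fibroblasts it left 0 of 3 in EC against vehicle and against IPFc, and 2 of 5 in TGF-β against vehicle, EC against TGF-β and IPFc against TGF-β. Between fractions it left 2 of 4 in vehicle, IPFc and TGF-β and 3 of 5 in EC, and of the TGF-β interaction 3 of 5. Without the replicate block the members called in epithelial libraries were 1 in IPFc against vehicle, 2 in TGF-β against vehicle and 2 in EC against IPFc, and 0 in the EC interaction. Blocking by mouse number in place of culture changed no call between fractions. Epithelial EC against IPFc also went to 3 with DESeq2, 3 at a mean count of at least 10 and 2 under robust estimation. Epithelial EC against vehicle went from 3 to 5 with no filter and to 5 with 2 groups alone. With no filter, fibroblast IPFc against vehicle went from 0 to 1 and the EC interaction from 1 to 4. When single mice were dropped, the members called ran from 2 to 5 in epithelial EC against vehicle, 1 to 2 in IPFc against vehicle, 2 to 5 in EC against IPFc and 1 to 4 in the EC interaction. DESeq2 size factors changed no call. Over all genes, calls ran from 330 with subtraction to 1172 with no filter in epithelial EC against vehicle (794 as reported) and from 32 with subtraction to 2053 without mouse 1 in fibroblast EC against vehicle (1284 as reported). The causes were not tested. Depth limits Cxcr2, and Cxcl3 and Cxcl2 in TGF-β fibroblasts, to 22, 5 and 18 reads in all.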
